A study of Mus musculus with 19 samples.

Results

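The genes of MHC class I presentation were followed across sorted Kupffer cells, which are macrophages that live in the sinusoids of the liver. The members were listed by role: the classical class I chains H2-K1 and H2-D1 with their partner B2m, the peptide transporter Tap1 and Tap2, the loading factor Tapbp, the immunoproteasome subunits Psmb8 and Psmb9, and the transactivator Nlrc5. Of these 9 genes among 33919 gene identifiers, 8 were matched to a row by mouse symbol, and Psmb9 was not analysed here. All 8 passed the filter on low values. RNA sequencing was done on 19 libraries from female C57BL/6 mice, and the libraries fall into 3 groups. The group Chow_EmKCs (n = 6) holds embryo-derived cells from chow-fed animals. MCD_EmKCs (n = 6) holds embryo-derived cells after 4 weeks on food lacking methionine and choline (MCD), a model of steatohepatitis. MCD_MoKCs (n = 7) holds monocyte-derived cells after that same feeding. Embryo-derived cells were sorted as CLEC2+ TIMD4+ and monocyte-derived cells as CLEC2+ TIMD4-, so origin was assigned by a surface marker. No monocyte-derived cells of chow-fed mice were analysed here, and no gene was deleted in any group.

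MHC class I molecules show peptides made inside the cell to CD8+ T cells. Proteasomes cut proteins in the cytosol, and interferon swaps their catalytic subunits for inducible ones such as the product of Psmb8. The TAP1 and TAP2 proteins form a pump that carries the peptides into the endoplasmic reticulum, where tapasin, the product of Tapbp, holds an empty class I chain beside the pump. The chain leaves for the cell surface only once it carries a peptide and beta-2-microglobulin, the product of B2m. NLRC5 drives transcription of these genes, as its relative CIITA does for MHC class II, through the factors RFX, CREB or ATF, and NF-Y bound to short promoter elements. In the liver, Kupffer cells present antigen to passing T cells.

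Most members sit in the MHC on chromosome 17 in the mouse build mm10. Tapbp lies at chr17:33915899-33929292 and H2-K1 at chr17:33996017-34000347 on the minus strand. Tap1 (chr17:34187553-34197225), Psmb8 (chr17:34197721-34201454) and Tap2 (chr17:34203527-34216321) follow each other on the plus strand, and H2-D1 lies at chr17:35262730-35267499. B2m (chr2:122147686-122153083) and Nlrc5 (chr8:94434356-94527272) are outside the MHC. Promoter sequences from RefSeq (build GRCm38.p6) were found for Psmb9 and for every measured member other than Tap2 and Nlrc5. The 4 shown hold letters of the short elements bound by CREB or ATF and by NF-Y. Each covers the 250 bases upstream of a RefSeq start, 5′ to 3′, and capitals mark every match on either strand to 4 motifs. These were the kappa B element, which is the first capital run of the H2-K1 and H2-D1 lines, the X2 core TGACG bound by CREB and ATF, the Y core CCAAT bound by NF-Y, and the interferon response element, which is the first capital run of the B2m line and in which any letters may stand between its outer groups. The H2-K1 window belongs to the second of its RefSeq starts. The windows are chr17:34000348-34000597 (minus strand), chr17:35262844-35263093, chr2:122147437-122147686 and chr17:34187306-34187555 (plus strand).
H2-K1: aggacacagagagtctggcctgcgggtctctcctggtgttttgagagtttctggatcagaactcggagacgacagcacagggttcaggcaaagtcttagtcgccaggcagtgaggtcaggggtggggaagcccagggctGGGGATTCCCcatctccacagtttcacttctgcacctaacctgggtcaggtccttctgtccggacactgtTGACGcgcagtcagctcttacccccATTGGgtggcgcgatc
H2-D1: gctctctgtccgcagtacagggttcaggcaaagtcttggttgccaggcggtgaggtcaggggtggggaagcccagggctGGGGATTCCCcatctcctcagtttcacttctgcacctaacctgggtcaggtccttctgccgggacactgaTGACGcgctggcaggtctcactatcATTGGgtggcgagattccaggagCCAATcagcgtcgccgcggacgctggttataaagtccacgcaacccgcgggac
B2m: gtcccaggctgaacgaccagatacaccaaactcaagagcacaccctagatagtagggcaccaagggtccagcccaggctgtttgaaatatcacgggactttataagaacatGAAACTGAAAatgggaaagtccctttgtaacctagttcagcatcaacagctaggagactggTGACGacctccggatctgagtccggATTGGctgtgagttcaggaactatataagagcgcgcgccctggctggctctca
Tap1: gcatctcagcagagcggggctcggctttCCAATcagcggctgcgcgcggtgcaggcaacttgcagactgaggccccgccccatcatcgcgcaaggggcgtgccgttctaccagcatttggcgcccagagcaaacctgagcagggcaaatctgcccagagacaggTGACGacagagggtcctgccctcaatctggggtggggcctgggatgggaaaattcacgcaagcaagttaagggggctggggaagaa

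In H2-K1, H2-D1 and B2m the letters TGACG were followed 25 bases further on by ATTGG, the Y core on the other strand. The X2 letters stood 41, 101 and 78 bases before the start used for each. In Tap1 this arrangement was not found. Its only Y letters stood upstream of its X2 letters, at 222 and 86 bases before the start. The kappa B element was found in H2-K1 and H2-D1, and in 0.0852% of 32851 promoters of this length. The X2 letters were in 17.8% of them, the Y letters in 33.8% and the interferon response letters in 2.98%. A match to the interferon response letters was found in B2m (GAAACTGAAA) and not in the other 3 windows. Only this strict pattern was searched, and forms of the element that differ from it by a letter were not looked for. Whether H2-K1, H2-D1 and Tap1 carry such a form was therefore not tested. The Tap1 window overlaps that of Psmb9, which is transcribed away from it, and both hold the same X2 letters. No match was found in the Psmb8 window. The H2-D1 window lies within the gene's annotated span in GENCODE, which begins upstream of the RefSeq start. A match is a description of letters and not of binding.

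Values are the deposited normalised reads, for which each library's reads were divided by a single size factor. The libraries held 11642240 to 30983487 reads, and 1 read was worth 0.575 to 1.66 normalised reads. Genes of the Kupffer cell marker list were read in every library, with Clec4f between 150476 and 260533 normalised reads in the embryo-derived groups and between 13948 and 27160 in MCD_MoKCs. Their summed share of reads was 2.09 to 2.74% in Chow_EmKCs, 1.53 to 2.04% in MCD_EmKCs and 0.394 to 0.620% in MCD_MoKCs, and that of the 6 monocyte genes 0.000915 to 0.00186%, 0.00161 to 0.00377% and 0.0364 to 0.0724%. The 12 T and NK cell genes summed to 0.000882 to 0.00187%, 0.000269 to 0.00189% and 0.00250 to 0.00472%. Of these, Cd8a was at 0 in 15 of 19 libraries. Median Nkg7 was 12.2, 3.12 and 108 normalised reads, and median Cd4 209, 82.8 and 69.5. B cell genes summed to 0.00102 to 0.00323%, 0.000730 to 0.00238% and 0.00193 to 0.00402%. Dendritic cell genes summed to 0.00716 to 0.0116%, 0.00551 to 0.00953% and 0.00719 to 0.0107%. Among these, median Flt3 was 3.53, 6.79 and 166 normalised reads, and median Batf3 1105, 862 and 681. Hepatocyte genes summed to 0.0198 to 0.0565% in Chow_EmKCs, against 0.00206 to 0.0133% in MCD_EmKCs and 0.00221 to 0.00621% in MCD_MoKCs. The mitochondrial share was 0.511 to 1.05%, 0.155 to 0.317% and 0.244 to 0.729%. The part of these shares in the class I values was not tested. The numbers in the library titles fall into a run of 17 to 33 and a run of 37 to 48, present in all 3 groups, and what the numbers stand for is not given in the sources used here.

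On the MCD diet, embryo-derived cells had a lower mean of every member than on chow, by 0.02 (Tapbp) to 0.71 (Nlrc5) on the log2 scale, with a median of -0.48 beside -0.04 for all genes tested. None of these passed the threshold: 0 of 8 members were called by limma at an adjusted p of 0.05, where 4.08% of the 14875 genes tested were. By DESeq2 on recovered reads 1 of 8 was called, Psmb8, and by edgeR 0 of 8. With the run of library numbers as a covariate in limma, 2 of 8 were called lower, B2m (adjusted p = 0.0439) and Psmb8 (adjusted p = 0.0277). At an unadjusted p under 0.05, 6 of 8 members passed, where 16.1% of all genes did. Between monocyte-derived and embryo-derived cells on MCD, 7 of 8 members had a higher mean in the monocyte-derived cells (median 0.29, all genes 0.02), and 1 of 8, Psmb8, was called higher, where 10.5% of all genes were called and 5.64% were called higher. At an unadjusted p under 0.05, 2 of 8 passed, against 23.2% of all genes. Against chow, the monocyte-derived cells had 7 of 8 members with a lower mean (median -0.17, all genes -0.01). There, 0 of 8 were called, where 16.8% of all genes were, with 1 of 8 at an unadjusted p under 0.05 (28% of all genes) and 0 of 8 by edgeR and by DESeq2. These 3 comparisons share groups, so they are not independent. In none of the 3 did the groups of any member stand wholly apart, as they did for 2.96%, 4.86% and 7.97% of all genes. In the same order, 1.55% were wholly higher and 1.41% wholly lower in MCD_EmKCs than on chow, 2.62% and 2.25% in MCD_MoKCs than in MCD_EmKCs, and 4.48% and 3.5% in MCD_MoKCs than on chow. Nothing in the labels ties a library to an animal of its own, and the p-values therefore refer to the spread among libraries. In sorted bulk samples, fewer cells of a type and less RNA per cell cannot be told apart.

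**Figure D1:**
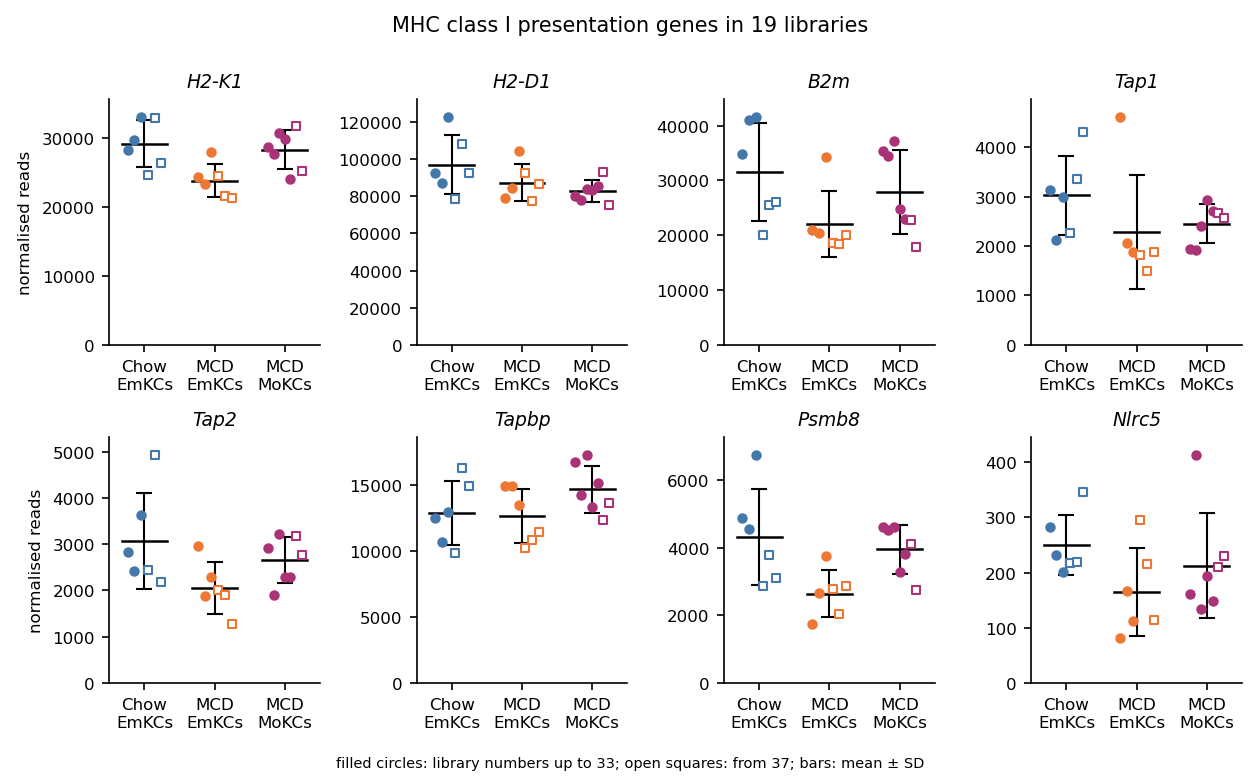
Normalised reads (vertical axes, linear, from 0) of the 8 measured members in each of the 19 libraries, by group. Each point is a library (filled circles, title numbers up to 33, and open squares, from 37), the lines and bars are the group mean and SD, and the groups of every member overlap.

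Levels between members were compared per kb of merged exons. This length pools all annotated transcripts of a gene, from 860 bases for B2m to 8493 for Nlrc5. Reads may have been counted over other stretches, as Patl2 shares no exonic base with B2m but had nearly its value (below). The order between members therefore depends on the length used. In Chow_EmKCs, H2-D1 was highest at 37622 ± 6169 normalised reads per kb (SD, n = 6), with B2m at 36631 ± 10419. H2-K1 followed at 9929 ± 1163, then Tapbp at 3543 ± 676, Psmb8 at 1277 ± 419, Tap2 at 811 ± 275, Tap1 at 553 ± 145 and Nlrc5 at 29.4 ± 6.40. The ranges of mean ± SD overlapped for H2-D1 and B2m, for Psmb8 and Tap2, and for Tap2 and Tap1. The order was the same in MCD_EmKCs. In MCD_MoKCs the top of the order was reversed, with B2m at 32454 ± 8867 (SD, n = 7) and H2-D1 at 32103 ± 2281, a difference smaller than either SD. H2-D1 ranked between 9 and 25 among all genes by normalised reads in the 19 libraries, and Nlrc5 between 6232 and 10239. The transactivator was thus the scarcest transcript of the set in each group, at a mean of 164 to 249.8 normalised reads.

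H2-K1 encodes the class I chain H-2K. In Chow_EmKCs it ranged from 24641 to 33048 normalised reads with a median of 29027, in MCD_EmKCs from 21295 to 28052 with a median of 23832, and in MCD_MoKCs from 24148 to 31836 with a median of 28748. In MCD_EmKCs, 5 of 6 libraries lay below every chow library, and the exception was MCD_EmKCs 3. The log2 fold change on MCD was -0.29 (SE 0.107, limma adjusted p = 0.147). Between MCD_MoKCs and MCD_EmKCs it was 0.25 (SE 0.103, limma adjusted p = 0.134), with 4 of 7 monocyte-derived libraries above all 6 embryo-derived ones. MCD_MoKCs and Chow_EmKCs differed by -0.04, with a 95% confidence interval of -0.25 to 0.17.

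H2-D1, the H-2D chain, was the most abundant member by reads in every group. It ranged from 78411 to 122630 normalised reads in Chow_EmKCs (median 92771), from 77466 to 104350 in MCD_EmKCs (median 85416) and from 75334 to 93339 in MCD_MoKCs (median 83573). The groups overlapped widely, and the highest 2 values were both in chow libraries. Its log2 fold changes were -0.14 (limma adjusted p = 0.547) for diet, -0.07 (adjusted p = 0.729) between the MCD groups and -0.22 (adjusted p = 0.157) between MCD_MoKCs and Chow_EmKCs. H2-K1 and H2-D1 are related class I chains, and how the counting divided any reads shared between them is uncertain.

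The balance of H2-K1 to H2-D1 differed between the MCD groups. The log2 ratio of H2-K1 to H2-D1 was -1.73 ± 0.118 in Chow_EmKCs, -1.87 ± 0.107 in MCD_EmKCs and -1.55 ± 0.128 in MCD_MoKCs. It was 0.32 higher in MCD_MoKCs than in MCD_EmKCs (exact permutation test, two-sided, p = 0.002331, adjusted over 15 ratio tests p = 0.01166), with 6 of 7 monocyte-derived libraries above all embryo-derived ones. The other 2 differences, of -0.14 and 0.18, had adjusted p = 0.07143 and 0.06216. Without MCD_MoKCs 1 to 3 the difference between the MCD groups was 0.26 with an adjusted p of 0.05844, and within the runs of library numbers it was 0.27 and 0.36, where the smallest p a run allows is 0.03571 and 0.2 and neither passed.

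B2m, the invariant partner of every classical class I chain, was the most variable of the 3 structural genes. It spanned 20079 to 41533 normalised reads in Chow_EmKCs (median 30448), 18366 to 34278 in MCD_EmKCs (median 20203) and 17791 to 37227 in MCD_MoKCs (median 24800). The high values were Chow_EmKCs 1 to 3, MCD_EmKCs 3 and MCD_MoKCs 1 to 3, all from 34278 upwards, and the other 12 libraries lay at or below 25988. The log2 fold changes of B2m were -0.50 for diet (SE 0.198, limma adjusted p = 0.191), 0.33 between the MCD groups (SE 0.191, adjusted p = 0.330) and -0.17 between MCD_MoKCs and chow (adjusted p = 0.622). Patl2, whose minus-strand span (chr2:122120108-122186189) contains B2m without a shared exonic base, had 1.002 to 1.016 times the B2m value in every library. The deposited table thus holds nearly the same value under both names.

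The same 7 libraries had over 3% of their reads in genes with merged exons shorter than 1000 bases, 3.05 to 4.77%, against 2.22 to 2.84% in the other 12. Members were left out of this share. B2m has 860 bases of merged exons. With the share as a covariate, added after the values were seen, the B2m diet difference was -0.19 (SE 0.126, limma adjusted p = 0.540). The B2m difference between the MCD groups changed sign, to -0.10 (SE 0.129, adjusted p = 0.795).

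**Figure D2:**
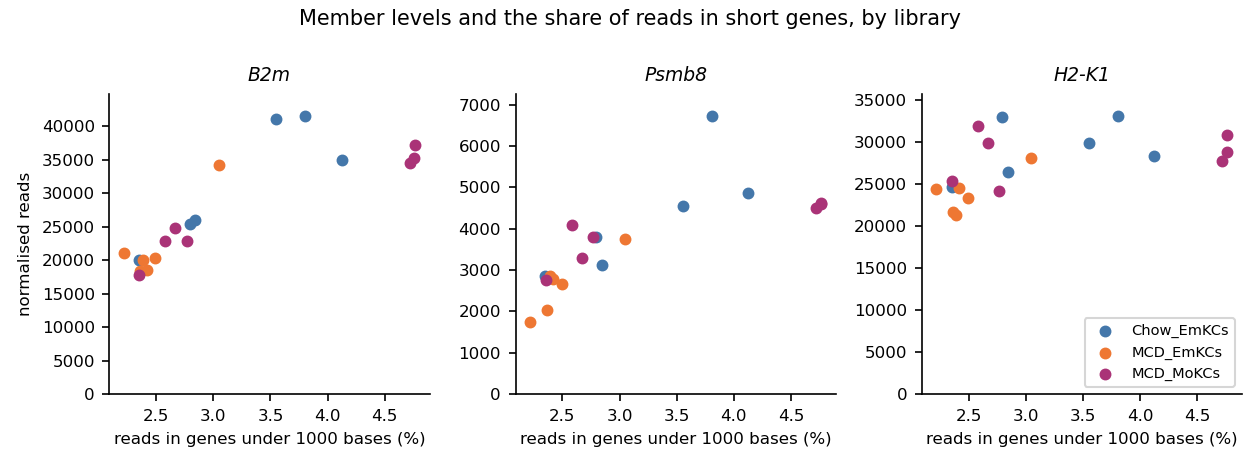
Normalised reads of B2m, Psmb8 and H2-K1 (vertical axes, linear) against the percent of reads in genes with merged exons under 1000 bases (horizontal axes), each point 1 of 19 libraries coloured by group. The 7 libraries over 3% hold the 7 highest B2m values, from 34278 upwards.

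Of the peptide transporter, Tap1 ranged from 2122 to 4308 normalised reads in Chow_EmKCs (median 3062), from 1484 to 4609 in MCD_EmKCs (median 1880) and from 1929 to 2936 in MCD_MoKCs (median 2570). In MCD_EmKCs 5 of 6 libraries lay below every chow library, while MCD_EmKCs 1 held the highest value of all 19. The diet difference of Tap1 was -0.47 on the log2 scale (SE 0.218, limma adjusted p = 0.278). Without MCD_EmKCs 1 it was -0.70 with an adjusted p of 0.0248, so that library decided the call.

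Tap2 ranged from 2188 to 4919 normalised reads in Chow_EmKCs (median 2630), from 1270 to 2963 in MCD_EmKCs (median 1957) and from 1901 to 3228 in MCD_MoKCs (median 2763). The highest value was Chow_EmKCs 5 and the lowest MCD_EmKCs 6. Its diet difference was -0.57 (SE 0.205, limma adjusted p = 0.136) and that between the MCD groups 0.39 (SE 0.198, adjusted p = 0.235). The antisense-strand transcript Gm15821 shares 533 exonic bases with Tap2 and had 0.339 to 0.480 times its value, so some reads may belong to either.

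The range of Tapbp was 9810 to 16269 normalised reads in Chow_EmKCs (median 12728), 10226 to 14924 in MCD_EmKCs (median 12439) and 12304 to 17226 in MCD_MoKCs (median 14257). The diet difference was -0.02, with a 95% confidence interval of -0.30 to 0.26. MCD_MoKCs had differences of 0.22 from MCD_EmKCs (limma adjusted p = 0.339) and 0.20 from Chow_EmKCs (adjusted p = 0.348). Of 13 chaperones and peptide-trimming enzymes that complete this step, 0 passed the threshold for diet (4.08% of all genes did). Between the MCD groups 0 of these 13 passed (10.5% of all genes). Among them were Calr, the calreticulin chaperone, with diet difference 0.01, and Erap1, the trimming peptidase of the endoplasmic reticulum, with 0.13. Between MCD_MoKCs and Chow_EmKCs, 1 of 13 was called lower (8.08% of all genes) and 1 of 13 higher (8.68%). The lower was Tapbpl, the tapasin-related peptide editor, with a log2 difference of -0.68 (limma adjusted p = 0.0116). The higher was Npepps, a cytosolic aminopeptidase, by 0.86 (adjusted p = 0.0317). The Tapbpl call was lost without MCD_MoKCs 1 to 3 (-0.59, adjusted p = 0.0850) and in the run of library numbers from 37 (-0.084, adjusted p = 0.917). The Npepps call was lost on leaving out any 1 of Chow_EmKCs 3, 5 and 6 and MCD_MoKCs 1, 2, 3 and 5 (adjusted p up to 0.0863).

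Psmb8, the inducible subunit that takes the place of Psmb5, was the 1 member called in any comparison. It ranged from 2855 to 6726 normalised reads in Chow_EmKCs (median 4177), from 1741 to 3754 in MCD_EmKCs (median 2722) and from 2749 to 4612 in MCD_MoKCs (median 4095). In MCD_MoKCs 5 of 7 libraries lay above all 6 of MCD_EmKCs. The mean was 3950 ± 718 in MCD_MoKCs (SD, n = 7) against 2641 ± 705 in MCD_EmKCs (SD, n = 6), which is 0.60 higher on the log2 scale (SE 0.195, adjusted p = 0.0464 by limma). Leaving out any 1 of 13 libraries ended this call (adjusted p 0.0507 to 0.126). On chow the mean was 4318 ± 1416, and the diet difference of -0.69 (SE 0.202) missed the threshold at adjusted p = 0.0503. Between MCD_MoKCs and Chow_EmKCs it was -0.09, with a 95% confidence interval of -0.49 to 0.31.

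The call between the MCD groups was not kept by edgeR on recovered reads (adjusted p = 0.0826) or by DESeq2 (adjusted p = 0.0515). It was also lost without MCD_MoKCs 1 to 3 (log2 fold change 0.43, adjusted p = 0.351) and with the share of short genes as a covariate (0.28, adjusted p = 0.462). Psmb8 was highest in the libraries where that share was over 3% in each group. The diet difference under the same covariate was -0.45 (SE 0.172, adjusted p = 0.181).

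The companions of Psmb8 in the inducible proteasome were Psmb10, the inducible subunit that takes the place of Psmb7, Psme1 and Psme2, which form the PA28 cap, and the assembly factor Pomp. All 4 had a lower mean on MCD (log2 fold changes -0.58 to -0.42), and 0 of 4 passed the threshold (4.08% of all genes did). The closest was Psmb10, at 1830 ± 338 normalised reads in MCD_EmKCs against 2785 ± 789 in Chow_EmKCs (log2 fold change -0.58, limma adjusted p = 0.0893). Between the MCD groups they differed by 0.16 to 0.59, again with 0 of 4 called (10.5% of all genes). Of the 14 constitutive 20S subunits 0 were called for diet (4.08% of all genes). In MCD_MoKCs, 1 of 14 was called higher than in MCD_EmKCs and 1 of 14 than in Chow_EmKCs (5.64% and 8.68% of all genes). Both times it was Psmb6, a constitutive catalytic subunit (log2 fold change 0.91, SE 0.227, limma adjusted p = 0.00879, and 1.16, adjusted p = 4.86e-04). The former call was lost without MCD_MoKCs 1 to 3, under the short-gene covariate and within each run of library numbers.

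The ratio of the inducible to the constitutive subunit at 1 catalytic site was then compared within libraries. The log2 ratio of Psmb8 to Psmb5 was 1.09 ± 0.512 in Chow_EmKCs, 0.815 ± 0.838 in MCD_EmKCs and 0.857 ± 0.508 in MCD_MoKCs, and its 3 differences had adjusted p from 0.5099 to 0.9184 by the exact permutation test. The log2 ratio of Psmb10 to Psmb7 was 2.95 ± 0.316, 2.43 ± 0.353 and 2.24 ± 0.486. It was lower than on chow by -0.52 in MCD_EmKCs (exact permutation p = 0.01948, adjusted p = 0.04174) and by -0.71 in MCD_MoKCs (p = 0.01515, adjusted p = 0.03788), with 6 of 7 libraries of the latter below every chow library. Both calls were also lost without some single libraries, among them Chow_EmKCs 3 to 6 (adjusted p up to 0.08349 and 0.08207). Within the runs of library numbers the diet difference was -0.31 and -0.74, and that of MCD_MoKCs -0.43 and -1.25. The smallest p these runs allow is 0.1 for each of the former and 0.03571 and 0.2 for the latter before adjustment. Where the limit is 0.1 or 0.2, passing the threshold was not possible. In the run from 37 both differences were at their limit. In the run up to 33 they were above it, with exact permutation p = 0.3 for diet and 0.2143 for MCD_MoKCs against chow.

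Nlrc5, the class I transactivator, ranged from 201 to 346 normalised reads in Chow_EmKCs (median 226), from 81.5 to 296 in MCD_EmKCs (median 140) and from 133 to 413 in MCD_MoKCs (median 194). In MCD_EmKCs 4 of 6 libraries lay below every chow library. The diet difference was -0.71 with a 95% confidence interval of -1.42 to -0.000385 (SE 0.346, limma adjusted p = 0.311), the widest interval among the members. The other 2 differences were 0.41 (adjusted p = 0.509) and -0.30 (adjusted p = 0.619).

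**Figure D3:**
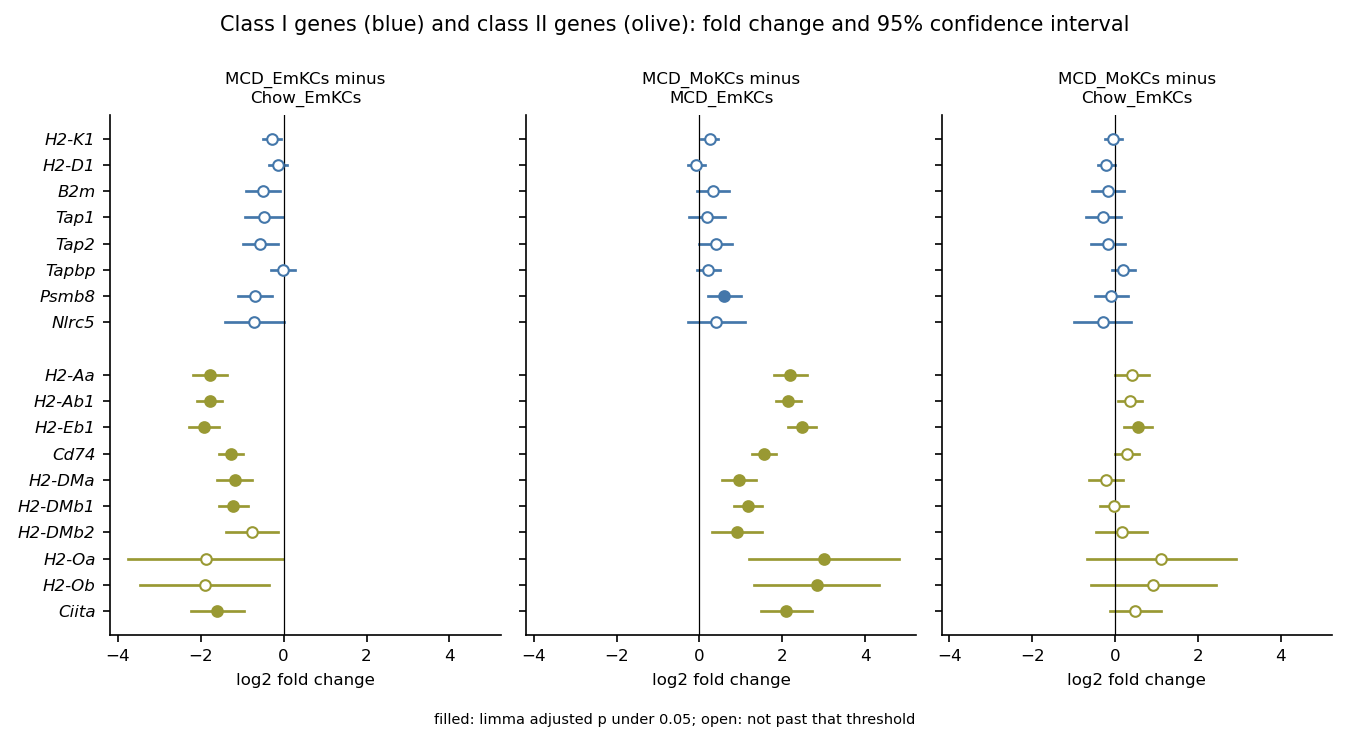
Log2 fold change (horizontal axes) with its 95% confidence interval from limma for the 8 members (blue) and all 10 class II genes of the list (olive) in the 3 comparisons. Filled points passed an adjusted p of 0.05: among members Psmb8 alone is filled, between the MCD groups, and of the class II genes 7 are filled for diet, 10 between the MCD groups and 1 against chow.

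The class II presentation genes were read beside the members. Of 10 class II genes, 7 fell on MCD (1.58% of all genes tested were called lower) and 10 were higher in MCD_MoKCs than in MCD_EmKCs (5.64% of all genes were called higher). Against chow, 1 of 10, H2-Eb1, was called higher in MCD_MoKCs (8.68% of all genes). Of the 10 calls between the MCD groups, that of H2-DMb2 was lost on leaving out any 1 of 14 libraries (adjusted p up to 0.118) and that of H2-Oa without MCD_EmKCs 1 or 5 or MCD_MoKCs 2 or 3 (adjusted p up to 0.074). Both were lost without MCD_MoKCs 1 to 3 (adjusted p = 0.369 and 0.254), as were the calls of H2-DMa and H2-Ob. In the run of library numbers from 37, the calls of H2-DMa, H2-DMb2, H2-Oa, H2-Ob and Ciita were lost. In the run up to 33, those of H2-DMb2 and H2-Ob were lost. H2-Ab1, a class II beta chain, stood in Chow_EmKCs at 71509 ± 16000 normalised reads, with 20456 ± 2332 for MCD_EmKCs and 92432 ± 19757 for MCD_MoKCs. Ciita, the class II transactivator, stood at 1189 ± 388, 416 ± 183 and 1672 ± 549. Its log2 fold changes were -1.61 for diet (limma adjusted p = 0.00215) and 2.09 between the MCD groups (adjusted p = 1.69e-05). The diet call of Ciita was lost in the run of library numbers up to 33 (limma adjusted p = 0.128). Its call between the MCD groups was lost in the run from 37 (adjusted p = 0.0528).

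Whether the class I and class II chains changed unequally was tested on their ratio within each library. The log2 ratio of H2-K1 to H2-Ab1 was -1.27 ± 0.223 in Chow_EmKCs, 0.224 ± 0.123 in MCD_EmKCs and -1.68 ± 0.220 in MCD_MoKCs. H2-K1 reads thus outnumbered H2-Ab1 reads in all 6 libraries of MCD_EmKCs and in no other library. The ratio was 1.498 higher on MCD in embryo-derived cells, with 6 of 6 libraries above all of chow (exact permutation p = 0.002165, the smallest this design can give, adjusted p = 0.01166). It was lower by -1.90 in MCD_MoKCs than in MCD_EmKCs, with 7 of 7 libraries below (exact permutation p = 0.001166, also the smallest possible, adjusted p = 0.01166). Within the 2 runs of library numbers these differences were 1.61 and 1.38, and -1.99 and -1.73. The smallest p these runs allow is 0.1 for each of the former and 0.03571 and 0.2 for the latter, and each difference was at that limit. The difference between MCD_MoKCs and Chow_EmKCs was -0.41 (adjusted p = 0.03497), and -0.29 without MCD_MoKCs 1 to 3 (adjusted p = 0.1429). That last call was also lost without Chow_EmKCs 4, Chow_EmKCs 5 or MCD_MoKCs 6 (adjusted p up to 0.06313).

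The ratio of the 2 transactivators was more scattered. The log2 ratio of Nlrc5 to Ciita was -2.21 ± 0.486 in Chow_EmKCs, -1.31 ± 1.33 in MCD_EmKCs and -3.00 ± 0.664 in MCD_MoKCs. It was lower by -1.68 in MCD_MoKCs than in MCD_EmKCs (exact permutation p = 0.009324, adjusted p = 0.03497), while the diet difference of 0.90 had adjusted p = 0.1741. Without MCD_MoKCs 1 to 3 the former was -1.41 with adjusted p = 0.102, and without MCD_EmKCs 2, 4 or 5 its adjusted p was 0.05051. Nlrc5 exceeded Ciita in 1 library, MCD_EmKCs 4.

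**Figure D4:**
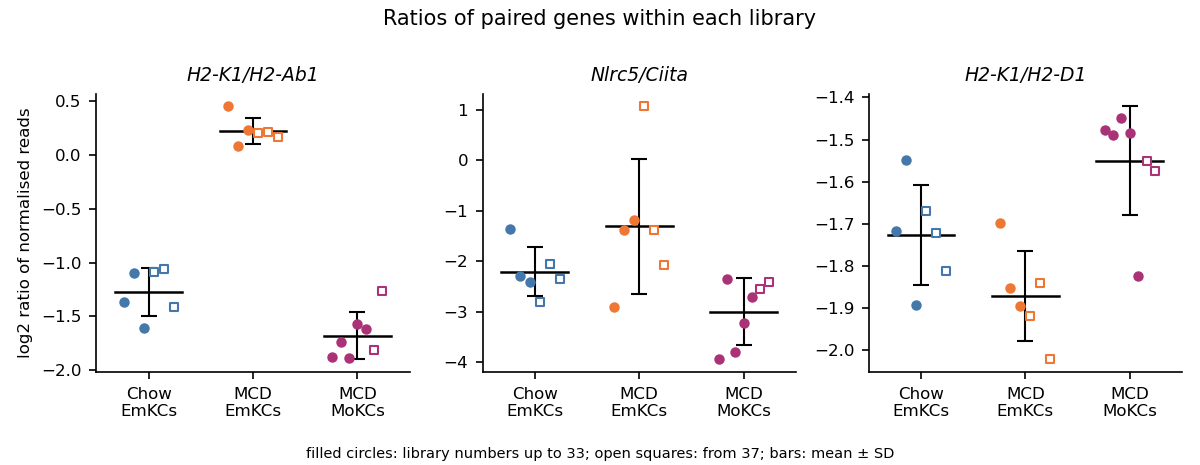
Log2 ratio of normalised reads (vertical axes) of H2-K1 to H2-Ab1, Nlrc5 to Ciita and H2-K1 to H2-D1 in each of the 19 libraries, with group mean and SD. The H2-K1 to H2-Ab1 ratio lies above 0 in the 6 libraries of MCD_EmKCs and below -1.06 in the other 13.

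Beside the classical chains, 15 other class I and class I-like chains were tested. On MCD, 3 of 15 fell (1.58% of all genes) and 1 of 15 rose (2.5% of all genes). H2-T23, whose product Qa-1 is a ligand of inhibitory receptors on NK cells, ranged from 8408 to 14447 normalised reads in Chow_EmKCs, from 5252 to 6531 in MCD_EmKCs and from 4754 to 8325 in MCD_MoKCs. Every chow library lay above every MCD library. Its log2 fold changes were -0.996 for diet (SE 0.158, limma adjusted p = 2.15e-04) and -0.80 between MCD_MoKCs and chow (SE 0.152, adjusted p = 3.54e-04), while the MCD groups differed by 0.20 (adjusted p = 0.489).

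H2-M3, which presents formylated peptides, stood at 2107 ± 309 normalised reads in Chow_EmKCs and 1357 ± 117 in MCD_EmKCs (log2 fold change -0.63, limma adjusted p = 0.0143). H2-Q7, a Qa-2 chain, fell from 661 ± 109 to 359 ± 73.7 (log2 fold change -0.89, adjusted p = 0.0153) and stood at 706 ± 151 in MCD_MoKCs (0.97 above MCD_EmKCs, adjusted p = 0.00232). The diet calls of H2-M3 and H2-Q7, and that of H2-Q7 between the MCD groups, were lost within each run of library numbers. The Q-region chains are close copies of each other, so their read split is uncertain. H2-M2, named here after its values were seen, ranged from 0 to 25.7 normalised reads in Chow_EmKCs, from 50.3 to 127 in MCD_EmKCs and from 933 to 2240 in MCD_MoKCs, so that no groups overlapped. Its log2 fold changes were 3.64, 4.32 and 7.96, the last with limma adjusted p = 6.07e-10. With chow values this low, the sizes depend on the pseudocount and other settings. Over these they were 2.53 to 4.74, 4.08 to 4.53 and 6.96 to 8.90. The diet call was lost in the run of library numbers from 37 (limma adjusted p = 0.139).

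Between the MCD groups, 3 of these 15 chains were called lower in the monocyte-derived cells (4.9% of all genes) and 2 of 15 higher (5.64%), and 10 of 15 had a difference above 0. The 3 called lower were Cd1d1, Fcgrt and Hfe. Cd1d1, which presents lipids to NKT cells, stood in Chow_EmKCs at 2608 ± 290 normalised reads, with 2042 ± 341 for MCD_EmKCs and 948 ± 154 for MCD_MoKCs (log2 fold change -1.11 between the MCD groups, limma adjusted p = 9.37e-06). Fcgrt, the neonatal Fc receptor, stood at 9760 ± 1852, 6781 ± 1422 and 3938 ± 608 (log2 fold change -0.77, adjusted p = 0.00101). Hfe, a regulator of iron sensing, stood at 6583 ± 1278, 5526 ± 559 and 3327 ± 974 (log2 fold change -0.77, adjusted p = 0.00205). All 3 bind beta-2-microglobulin as the classical chains do. The Fcgrt and Hfe calls between the MCD groups were lost in the run of library numbers from 37 (limma adjusted p = 0.153 and 0.0964). Against chow, 6 of 15 were called lower in MCD_MoKCs (8.08% of all genes) and 2 of 15 higher (8.68%). One of the 6 was H2-Q10, a chain that mouse hepatocytes secrete, at 270 ± 162 against 66.4 ± 48.02 normalised reads (limma adjusted p = 0.0178, and 0.0572 without Chow_EmKCs 6). The summed share of hepatocyte genes was higher in Chow_EmKCs as well, and its part in the H2-Q10 result was not tested.

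**Figure D5:**
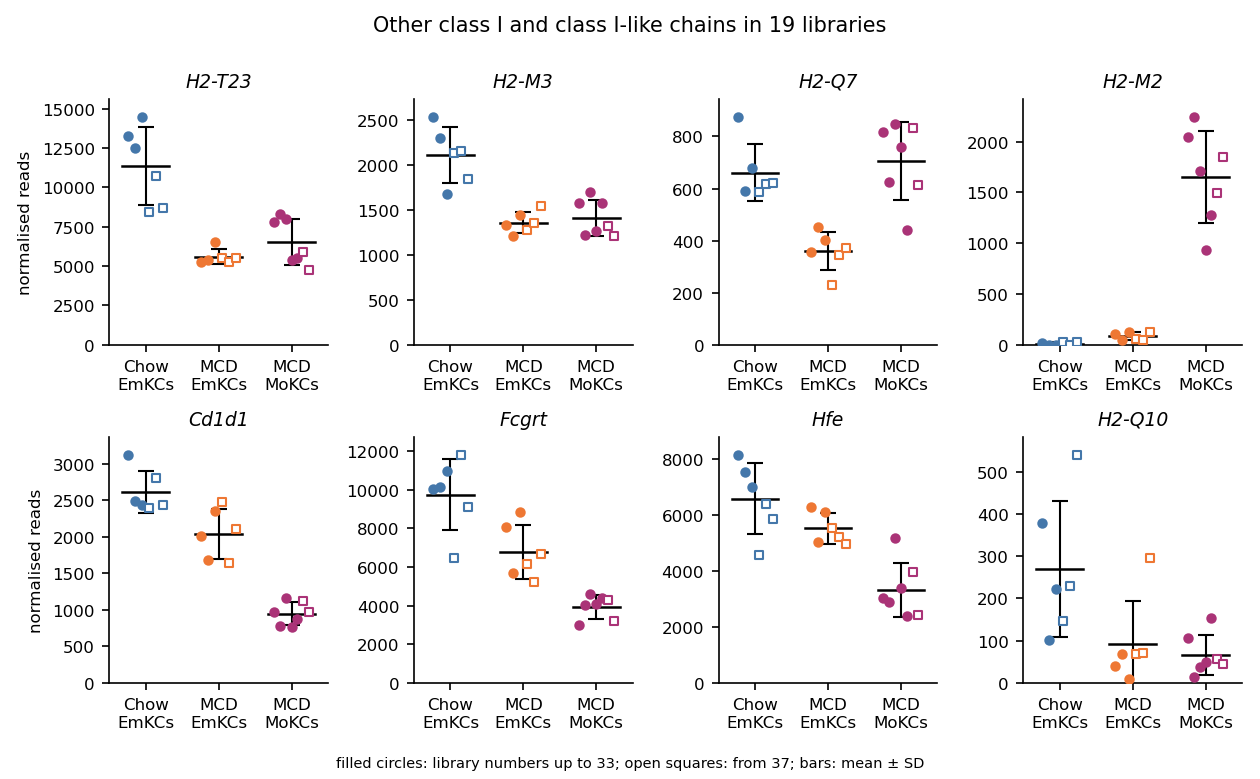
Normalised reads (vertical axes, linear, from 0) of 8 class I or class I-like chains in each of the 19 libraries, with group mean and SD. The 6 chow libraries lie above all 13 MCD libraries for H2-T23, and H2-M2 separates all 3 groups.

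The interferon pathway that induces class I genes was examined from its receptors to its targets. Of 11 receptor and signalling genes, 1 rose on MCD (2.5% of all genes were called higher): Socs3, a feedback inhibitor, with log2 fold change 0.65 (limma adjusted p = 0.0209, and up to 0.0564 without Chow_EmKCs 1 or 3 or MCD_EmKCs 3 or 6). In MCD_MoKCs, 1 of 11 was called higher and 2 lower than in MCD_EmKCs (5.64% and 4.9% of all genes). Against chow the counts were also 1 and 2 (8.68% and 8.08%). The 1 called higher was Socs3 both times. Its differences on leaving out 1 library were 0.77 to 0.92 and 1.42 to 1.59 (limma adjusted p up to 0.00284 and 7.09e-07). Both calls were kept in 35 of 35 other settings. Ifngr1, the ligand-binding chain of the interferon-gamma receptor, stood in Chow_EmKCs at 8851 ± 1053 normalised reads, with 6918 ± 517 for MCD_EmKCs and 5048 ± 1017 for MCD_MoKCs, and was called lower in MCD_MoKCs than in MCD_EmKCs (-0.48, adjusted p = 0.0169) and than in chow (-0.83, adjusted p = 3.42e-05). The former call was lost in 6 of 35 other settings, among them without MCD_MoKCs 1 to 3 (-0.35, adjusted p = 0.166), under the short-gene covariate (-0.38, adjusted p = 0.110) and in the run from 37 (-0.24, adjusted p = 0.591), and the latter in that run (-0.53, adjusted p = 0.0837). Irf9, a transcription factor of the type I interferon response, was lower by -0.77 on MCD (adjusted p = 0.0264, and up to 0.0728 without Chow_EmKCs 1, 2 or 5 or MCD_EmKCs 1 or 6).

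Subunits of the enhanceosome that NLRC5 and CIITA share, such as Rfx5, Rfxap, Rfxank and Nfya, were not called in any comparison, nor was Irf1. Of 9 interferon-gamma-inducible GTPases, which act against pathogens inside cells, 5 fell on MCD (1.58% of all genes were called lower) and 7 were lower in MCD_MoKCs than in chow (8.08% of all genes), while 1 (4.9% of all genes), Gbp2, was lower in MCD_MoKCs than in MCD_EmKCs (-0.72, limma adjusted p = 0.0396, lost on leaving out any 1 of 8 libraries). Examples are Iigp1, at 904 ± 367 normalised reads in Chow_EmKCs and 396 ± 79.6 in MCD_EmKCs (log2 fold change -1.12, limma adjusted p = 0.0206), and Irgm2 (-0.83, adjusted p = 0.0132). Of these 5, Irgm2 kept its diet call whichever library was left out, and Iigp1 lost it without Chow_EmKCs 1 or 2. Irgm2 and Iigp1 both lost it within each run of library numbers. Of 19 type I interferon-stimulated genes, 5 fell on MCD (1.58% of all genes), among them Oas1a, a sensor of double-stranded RNA (-0.73, adjusted p = 0.00779), which of the 5 kept its call whichever library was left out. Oas1a lost that call within each run of library numbers (limma adjusted p up to 0.326). The counts between MCD_MoKCs and MCD_EmKCs and between MCD_MoKCs and chow were 2 and 7 of 19 lower, where 4.9% and 8.08% of all genes were. None of these 19 was called higher for diet, between the MCD groups or against chow, where 2.5%, 5.64% and 8.68% of all genes were.

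Of 8 genes used in cross-presentation, by which outside antigen reaches class I, 0 were called for diet (4.08% of all genes). In MCD_MoKCs, 1 of 8 was called lower than in MCD_EmKCs and 1 of 8 than in chow (4.9% and 8.08% of all genes). Both times it was Snap23, a membrane fusion protein (log2 fold change -0.75, limma adjusted p = 8.89e-04, and -1.03, adjusted p = 7.93e-06). The former call was lost in the run of library numbers up to 33 (limma adjusted p = 0.0846).

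The members varied together only in part. Over the 19 libraries, Pearson's r of log2 values ranged from -0.251 (Tapbp and Nlrc5) to 0.837 (B2m and Psmb8) over the 28 pairs, with a median of 0.331 and 24 pairs above 0. Once group means were removed the median was 0.189. All points share the libraries' depth and scaling. H2-K1 was closest to Tap2 (r = 0.768) and Psmb8 (0.760) among members, and with group means removed to H2-D1 (0.732). Nlrc5 had r from -0.251 to 0.277 with the other 7, and from -0.404 to -0.0543 with group means removed. Among all genes tested, leaving out predicted ones, the patterns most like H2-K1 were those of Tmem176a (r = 0.857), Arpc4 (0.833) and the class II gene H2-DMa (0.827), and the most like H2-D1 was Ctsh (0.821). Beside Patl2, B2m was closest to Alox5ap (0.929), and Psmb8 to Srp14 (0.908), with Psme1 at 0.895. The nearest were Lzic for Tap1 (0.838), Twf2 for Tap2 (0.818), Usp10 for Tapbp (0.811) and Zbtb18 for Nlrc5 (0.774).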

How the data were processed

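Kupffer cells were freed from the liver with collagenase D and sorted by flow cytometry, per the labels' protocols, and RNA from a QIAGEN micro kit was amplified by Smartseq for Illumina sequencing. STAR, DESeq2 and mm10 are named in the submitters' processing notes. Which tool counted reads, with which strand setting and annotation, is not given in the sources used here. The authors deposited 1 table of normalised reads (a signal). The deposited values of a library are whole multiples of 1 step (tolerance 0.001 reads, 100% of values), so reads were recovered by division. Of 33919 identifiers, 29062 matched a symbol, and positions and exon lengths are from GENCODE M21 (mm10).

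The 14875 genes that reached 10 normalised reads in 6 or more libraries were tested. limma 3.58.1 (R 4.3.3) was run on log2(value + 1) with trend and robust variances, all 19 libraries in 1 model with a mean per group. Tests were two-sided, and p-values were adjusted by Benjamini and Hochberg's method across these genes, with a threshold of 0.05. Fold changes are on that log2 scale. Within-library log2 ratios were compared by exact two-sided permutation tests, adjusted over 15 tests (scipy 1.17.1). The Psmb9 to Psmb6 ratio was not computed. Alternatives were edgeR 4.0.16 and DESeq2 1.42.0 on recovered reads, other pseudocounts, filters and scalings, covariates, and libraries left out. The code was tested on simulated data. The members, the 11 other pathway lists and the marker lists were chosen with earlier results of these data known. Named genes are all members, genes of the ratios and, for some lists and comparisons, up to 3 called genes. These were to have the largest change and a mean of at least 100 normalised reads in the higher group. Not every gene that met this rule is named, and the list of 19S proteasome subunits is not described. Other genes named were chosen after their values were seen. The replicate numbers of the titles did not pair the libraries. Depth limits precision least for the class I chains and most for Nlrc5. No columns were left out. One gene of the transcription factor list is not reported here.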

Additional observations from a re-analysis of the deposited data

Results flagged for a closer look

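Among 39 sets of values of 1 member or 1 ratio in 1 group, 4 had a library standing apart from the rest by Dixon's test, where chance gives about 1 in 20. B2m in MCD_EmKCs 3 was 34280 normalised reads, with the other 5 libraries of the group between 18370 and 21020, and this library also had the highest share of reads in short genes of its group. Tap1 in MCD_EmKCs 1 was 4609, against 1484 to 2071 in the others, and without it the diet difference of Tap1 passed the threshold. Nlrc5 in MCD_MoKCs 2 was 412.7, against 133.3 to 230 in the other 6 libraries. The log2 ratio of H2-K1 to H2-D1 in MCD_MoKCs 5 was -1.823, against -1.575 to -1.448. No cause was tested for any of the 4.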

How the results depend on the processing

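Over 35 other settings, the members' 24 fold changes gave 840 values, of which 790 kept their direction and their side of the threshold, 14 gained it, 23 lost it and 13 changed sign. The cause of the changes was not tested. Psmb8 between the MCD groups lost its call (members called 0) without a filter (adjusted p = 0.0709), with TMM scaling (0.0554), edgeR (0.0826), DESeq2 (0.0515), no trend or robust variances (0.104), the run of library numbers as a covariate (0.0643), each run alone (0.105 and 0.476), MCD_MoKCs 1 to 3 left out (0.351) and the short-gene covariate (0.462). Leaving out 1 library gave 0 to 1 members called there, and Psmb8 lost its call (adjusted p up to 0.126) without any 1 of Chow_EmKCs 1, 2 and 5, MCD_EmKCs 1, 2, 4, 5 and 6, and MCD_MoKCs 1, 2, 3, 5 and 6. For diet, members called were 1 with pseudocount 5, the filter at 50, library totals or DESeq2 (Psmb8, adjusted p = 0.0480, 0.0479, 0.0338 and 0.0289) and 2 with the run covariate (B2m 0.0439, Psmb8 0.0277). Leaving out 1 library gave 0 to 1, with Psmb8 called without Chow_EmKCs 4 or 6, MCD_EmKCs 3 or MCD_MoKCs 7, and Tap1 without MCD_EmKCs 1. The replicate block, by numbers with no sign of pairing (4, 2 and 5 of 12 libraries correlated best with their own number), called 2, 2 and 0 members and 608, 1658 and 2474 genes. In the first comparison they were B2m and Psmb8 and in the second B2m (adjusted p = 0.0193) and Psmb8.

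Genes called for diet were 179 and 263 in the runs up to 33 and from 37, against 607; between the MCD groups 870 and 565, and 1010 without MCD_MoKCs 1 to 3, against 1568; and between MCD_MoKCs and chow 1257 and 1288, against 2493. Sign changes, all short of the threshold, were Tapbp for diet in the run up to 33 (0.26), under the short-gene covariate (0.048) and on leaving out 1 library (-0.0933 to 0.0527), Tap1 between the MCD groups in the run up to 33 (-0.16), B2m there under the short-gene covariate (-0.10), and, against chow in the run from 37, H2-K1 (0.0318), Tapbp (-0.0457) and Psmb8 (0.0545). Without Chow_EmKCs 3, Psmb8 against chow was 0.0501 (range over libraries -0.197 to 0.0501).

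Of the ratios, Psmb8 to Psmb5 changed sign for diet in the run from 37 (0.40), against chow there (0.48) and without MCD_MoKCs 1 to 3 (0.15), and between the MCD groups on leaving out 1 library (-0.14 to 0.28). Psmb10 to Psmb7 lost its calls without MCD_MoKCs 1 to 3 (diet, -0.52, adjusted p = 0.05844), in the runs (diet -0.31 and -0.74, MCD_MoKCs against chow -0.43 and -1.25) and on leaving out 1 library (-0.61 to -0.40 and -0.87 to -0.61). H2-K1 to H2-D1 between the MCD groups lost its call without MCD_MoKCs 1 to 3 (0.26) and in the runs (0.27 and 0.36), and for diet (-0.18 to -0.11) and against chow (0.14 to 0.22) gained one without 1 library. H2-K1 to H2-Ab1 lost its calls within the runs (1.61 and 1.38, -1.99 and -1.73, -0.38 and -0.35), and against chow was -0.29 without MCD_MoKCs 1 to 3 and -0.48 to -0.36 without 1 library. Nlrc5 to Ciita between the MCD groups lost its call without MCD_MoKCs 1 to 3 (-1.41), in the runs (-1.38 and -1.67) and without 1 library (-2.003 to -1.21), and gained one for diet (0.42 to 1.22) and against chow (-0.91 to -0.62).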
